A study of Mus musculus with 29 samples.

Results

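The genes described here are 10 members of the calcium-triggered vesicle release machinery of mouse retina: the synaptotagmins Syt1, Syt2, Syt3, Syt4, Syt5, Syt6, Syt7 and Syt11, and the priming factors Cadps and Cadps2. They were taken by name from the 24062 genes of an RNA-seq count table, and this set was selected on the RNA-seq levels of these same libraries, so their RNA levels are given as a description with no test. Expression was measured in 15 libraries, 3 from each of 5 sorted populations. All bipolar cells (pan-BC) came from Otx2-GFP+/- mice, which carry GFP at one copy of the Otx2 locus, at postnatal day 44 or 47. ON bipolar cells (ON-BC) and OFF bipolar cells (OFF-BC) came from Otx2-GFP+/-; Grm6-YFP+/+ mice at postnatal day 42, 43 or 48. In these mice a YFP transgene under the Grm6 promoter marks ON cells, and OFF-BC were sorted a second time. Each bipolar population pools cells of several types, and ON cells of type BC5D, which carry little YFP, were probably collected in neither gate. Rods came from Nrl-eGFP mice and blue cones from Nrl-eGFP;NrlKO mice, whose photoreceptors lack Nrl and are used as a surrogate for blue cones, all at postnatal day 56. The same group had made the photoreceptor libraries for previous work. Cell class, mouse line, age and study thus cannot be told apart in any comparison of bipolar cells with photoreceptors. Nor can the second sort be told apart from cell type between ON-BC and OFF-BC, or the Nrl knockout from cell type between rods and blue cones. ATAC-seq, which measures how open chromatin is, was used for 2 libraries each of the same 5 populations and of single-sorted green cones. The green cones came from Opn1mw-GFP mice at postnatal day 56. The series also holds 2 double-sorted green cone libraries, which were not used. Bipolar mice for ATAC-seq were at postnatal day 42 to 46, and the labels give those for pan-BC the Grm6-YFP transgene as well.

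Synaptotagmins are vesicle proteins whose paired C2 domains bind calcium and phospholipids and couple calcium entry to membrane fusion. Syt1 and Syt2 are the fast sensors of synaptic release, Syt7 is a slower sensor of high calcium affinity, and Syt3, Syt5 and Syt6 are further isoforms whose C2 domains bind calcium. Syt4 and Syt11 carry a substitution in the first C2 domain and are associated with dense-core and other vesicles. Cadps and Cadps2 encode CAPS1 and CAPS2, which prime vesicles, dense-core vesicles above all, before fusion. In the retina both photoreceptors and bipolar cells release glutamate continuously from ribbon synapses.

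The sequences below are those of promoters and regions described in the chromatin results, which were not derived from them. The first 3 are the 250 bases before the RefSeq transcription start (GRCm38.p6, gene strand) of both priming factors, which had closed promoters in rods, and of Syt11, which did not. RefSeq promoters were at hand for 7 of the 10 members (Syt4, Syt5 and Syt7 are named only). The other 3 are accessible regions, read on the plus strand of GRCm38.p6, that were more accessible in ON-BC than in OFF-BC. Capitals mark matches on either strand to 3 motifs: the K50 homeodomain motif TAATCC, the Q50 homeodomain motifs TAATTA and TAATTG, and the E-box CANNTG. No printed match overlapped another.
Cadps promoter, chr14:12823080-12823329, minus strand: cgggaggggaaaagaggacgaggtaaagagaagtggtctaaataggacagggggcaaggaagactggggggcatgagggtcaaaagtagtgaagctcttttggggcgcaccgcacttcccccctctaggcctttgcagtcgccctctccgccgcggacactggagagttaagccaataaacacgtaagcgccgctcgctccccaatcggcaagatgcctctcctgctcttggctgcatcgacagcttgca
Cadps2 promoter, chr6:23839422-23839671, minus strand: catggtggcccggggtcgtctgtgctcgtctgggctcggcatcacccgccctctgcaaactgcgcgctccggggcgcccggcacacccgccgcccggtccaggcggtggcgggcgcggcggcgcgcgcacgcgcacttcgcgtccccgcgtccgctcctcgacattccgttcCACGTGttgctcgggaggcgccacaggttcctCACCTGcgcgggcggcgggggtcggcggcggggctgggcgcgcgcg
Syt11 promoter, chr3:88772600-88772849, minus strand: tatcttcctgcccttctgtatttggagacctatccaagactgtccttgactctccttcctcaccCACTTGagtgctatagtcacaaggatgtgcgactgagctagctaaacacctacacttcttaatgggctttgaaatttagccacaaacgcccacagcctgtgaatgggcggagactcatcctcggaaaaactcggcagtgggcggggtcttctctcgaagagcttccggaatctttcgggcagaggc
Cadps intron, chr14:12759139-12759339, plus strand: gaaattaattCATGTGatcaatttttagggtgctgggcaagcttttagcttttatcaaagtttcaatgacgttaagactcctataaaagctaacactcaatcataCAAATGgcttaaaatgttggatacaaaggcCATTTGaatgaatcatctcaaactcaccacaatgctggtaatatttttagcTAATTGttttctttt
Cadps2 intron, chr6:23748382-23748582, plus strand: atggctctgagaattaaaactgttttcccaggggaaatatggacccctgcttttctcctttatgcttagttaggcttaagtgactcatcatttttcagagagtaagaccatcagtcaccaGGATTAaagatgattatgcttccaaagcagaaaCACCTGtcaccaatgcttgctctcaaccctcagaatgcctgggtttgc
Syt2 upstream, chr1:134621511-134621711, plus strand: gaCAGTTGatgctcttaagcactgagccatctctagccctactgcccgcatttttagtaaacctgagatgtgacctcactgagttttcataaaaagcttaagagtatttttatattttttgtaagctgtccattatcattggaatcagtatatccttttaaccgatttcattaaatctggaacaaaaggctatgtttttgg

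The Cadps2 promoter held 2 E-boxes, the Syt11 promoter 1 and the Cadps promoter 0, where 66.2% of the 32851 RefSeq promoters of this length held at least 1. None of these promoters held a homeodomain match, against 6.25% of all promoters with a K50 motif and 11.3% with a Q50 motif. Of the regions, that in Cadps2 held 1 K50 match, which 21.8% of all 110715 regions did, and that in Cadps held 1 Q50 match, which 11.4% did. The Cadps region had 3 E-boxes and the regions of Cadps2 and Syt2 had 1 each, where 68.9% of regions had any. A match is a description of the letters and not a binding site.

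RNA-seq libraries held 12329548 to 26266746 counted reads and ATAC-seq libraries 4176776 to 12345845. RNA levels below are normalised read counts, the reads of a gene divided by the size factor of its library. The deposited labels and the markers went together: Grm6, the glutamate receptor of ON cells, was 13260 to 13835 in ON-BC and 64.9 to 593 in OFF-BC, and Nrl was 11476 to 16599 in rods and 486 to 764 in the Nrl knockout. The cone opsin Opn1sw was 55813 in OFF-BC replicate 3 and 4314 and 4477 in the other two. The rod genes Nrl, Gnat1 and Nr2e3 summed to 3863 to 5554 in ON-BC, 4927 to 5857 in pan-BC and 309 to 467 in OFF-BC, against 455800 to 644957 in rods. Cone markers summed to 39304 to 64132 in pan-BC, 3968 to 4538 in ON-BC and 20040 to 85287 in OFF-BC, against 1387264 to 1603086 in blue cones. Amacrine markers summed to 2068 to 2427 in rods and 1357 to 1595 in blue cones, and to at most 925 in bipolar libraries, and horizontal cell markers to at most 52.6 in any library. The part of these cells in the results below was not tested. In such bulk samples, fewer cells of a type and less RNA per cell cannot be told apart. Replicates of ON-BC, of OFF-BC and of ATAC-seq pan-BC differ in postnatal day and so came from different mice. Nothing in the labels states whether photoreceptor replicates, or the RNA-seq pan-BC replicates at day 44, came from separate animals. The p-values below measure the spread between these libraries.

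Syt1, the major fast calcium sensor of synaptic vesicles, was abundant in all 5 populations. Its normalised counts were 18043, 18760 and 17936 in pan-BC, 17043, 19398 and 17046 in ON-BC, and 11533, 14427 and 13168 in OFF-BC. They were 8534, 7909 and 7687 in rods and 19730, 19182 and 18854 in blue cones. Rods thus had the lowest level and no overlap with any other population, pan-BC overlapped ON-BC, and blue cones lay above pan-BC but overlapped ON-BC. The mean in pan-BC was 2.27 times that in rods, and the mean in ON-BC was 1.37 times that in OFF-BC. The small excess of blue cones over pan-BC, a log2 difference of -0.08 for pan-BC minus blue cones, turned to 0.20 when libraries were scaled by their totals.

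Syt2, the fast sensor of some fast central synapses, was far less abundant. Pan-BC had 102, 115 and 135 normalised counts, ON-BC had 11.4, 45.1 and 16.4, and OFF-BC had 96.1, 215 and 145. Blue cones had 5.27, 0 and 7.40, and none of the 3 rod libraries had a read. OFF-BC libraries all exceeded ON-BC libraries, with means of 152 ± 59.8 and 24.3 ± 18.2 (SD, n = 3), whereas OFF-BC and pan-BC overlapped. With 0 reads in rods against a floor of 3 counts over the group, pan-BC had at least a 114-fold higher level.

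Syt3, Syt5 and Syt6, further isoforms whose C2 domains bind calcium, had far lower counts than Syt1 in every population. Mean Syt3 ran in the order pan-BC (345 ± 34.95; SD, n = 3 here and after), ON-BC (277 ± 20.8), OFF-BC (232 ± 33.1), blue cones (120 ± 10.3) and rods (25.9 ± 16.2), and no neighbours in this order overlapped. Syt5 was 48.1, 56.5 and 35.3 in OFF-BC and 1.03, 18.6 and 13.3 in ON-BC. It had 2 reads in all rod libraries together and 1 in all blue cone libraries, against 72 in pan-BC, a ratio to rods of 38.4 with a 95% counting interval of 10.3 to 323. Syt6 did not pass the filter on low counts, the only member of the 10 that did not, with at most 13.2 normalised counts in any library and 0 in every photoreceptor library. OFF-BC had 6.71, 7.21 and 13.2, ON-BC had 0, 8.82 and 0, and pan-BC had 2.13, 7.06 and 1.22, and these populations overlapped.

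Syt7, the slow sensor linked to asynchronous release and vesicle replenishment, ran opposite to Syt2 and Syt5 within bipolar cells. ON-BC had 153, 133 and 75.9 normalised counts and OFF-BC had 14.5, 14.4 and 26.5, so the populations did not overlap and the ON-BC mean was 6.53 times higher. Pan-BC had 85.1, 76.7 and 96.7, and blue cones had 2.26, 6.07 and 9.62. Rods had 2 reads in all, a ratio of pan-BC to rods of 125 with a 95% counting interval of 34.3 to 1041. Without ON-BC replicate 3, the lowest of its group, the log2 difference of ON-BC minus OFF-BC was 2.94 in place of 2.64.

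Syt4 and Syt11, the isoforms with an altered first C2 domain, were high in bipolar cells and far lower in photoreceptors. Syt4 reached 41194, 41074 and 36093 normalised counts in pan-BC, 39884, 21254 and 42263 in ON-BC, and 33188, 26246 and 29459 in OFF-BC. It was 88.3, 94.2 and 157 in rods and 247, 302 and 324 in blue cones. Pan-BC had a mean 349 times that of rods and 136 times that of blue cones, and ON-BC and OFF-BC overlapped. ON-BC replicate 2 lay below every OFF-BC library. The log2 difference of ON-BC minus OFF-BC was 0.16 with it, 0.48 without it, and -0.02 without ON-BC replicate 3. The lowest Syt4 library of ON-BC and that of OFF-BC were both from mice at postnatal day 48.

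Syt11 was even across bipolar populations. Pan-BC had 7775, 8175 and 7580 normalised counts, ON-BC had 7392, 8428 and 7238, and OFF-BC had 8015, 7218 and 7117, and the 3 populations overlapped. Blue cones had 1084, 1191 and 1266 and rods had 152, 187 and 191. The pan-BC mean was 44.3 times that of rods and 6.65 times that of blue cones, and blue cones lay above rods by 6.67 times.

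Cadps, which primes vesicles in most neurons, was high in every bipolar population and low in photoreceptors. Its normalised counts were 9212, 9470 and 10202 in pan-BC, 9414, 11784 and 9647 in ON-BC, and 12550, 14830 and 11233 in OFF-BC. Rods had 30.1, 28.7 and 56.2 and blue cones had 105, 105 and 194. The order of the bipolar populations was OFF-BC, ON-BC, pan-BC, and these neighbours overlapped. The pan-BC mean was 251 times that of rods and 71.5 times that of blue cones.

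Cadps2 had the pattern furthest from that of its paralog. OFF-BC had 567, 460 and 390 normalised counts, whereas ON-BC had 0, 1.96 and 0, which is 2 reads in 3 libraries against 1243. The ratio was 700 with a 95% counting interval of 193 to 5784. Blue cones had 162, 154 and 172, above the 66.0, 72.6 and 95.4 of pan-BC, and rods had 1 read in all. In the order OFF-BC, blue cones, pan-BC, ON-BC, rods, the only neighbours that overlapped were ON-BC and rods. OFF-BC replicate 3, which had the most Opn1sw, had the lowest Cadps2 of its group.

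Without overlap between libraries, pan-BC exceeded rods for 9 of the 9 members tested and lay below them for 0, where 46% of all genes tested were higher and 37.7% lower. Against blue cones 7 were higher and 2 lower (42.7% and 35.7% of all genes), and in ON-BC against OFF-BC 3 were higher and 3 lower (19.6% and 22.6%). Between rods and blue cones 0 were higher in rods and 7 lower (30% and 30.9%). These counts rest on the values that chose the members and are given without a reading.

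**Figure D1:**
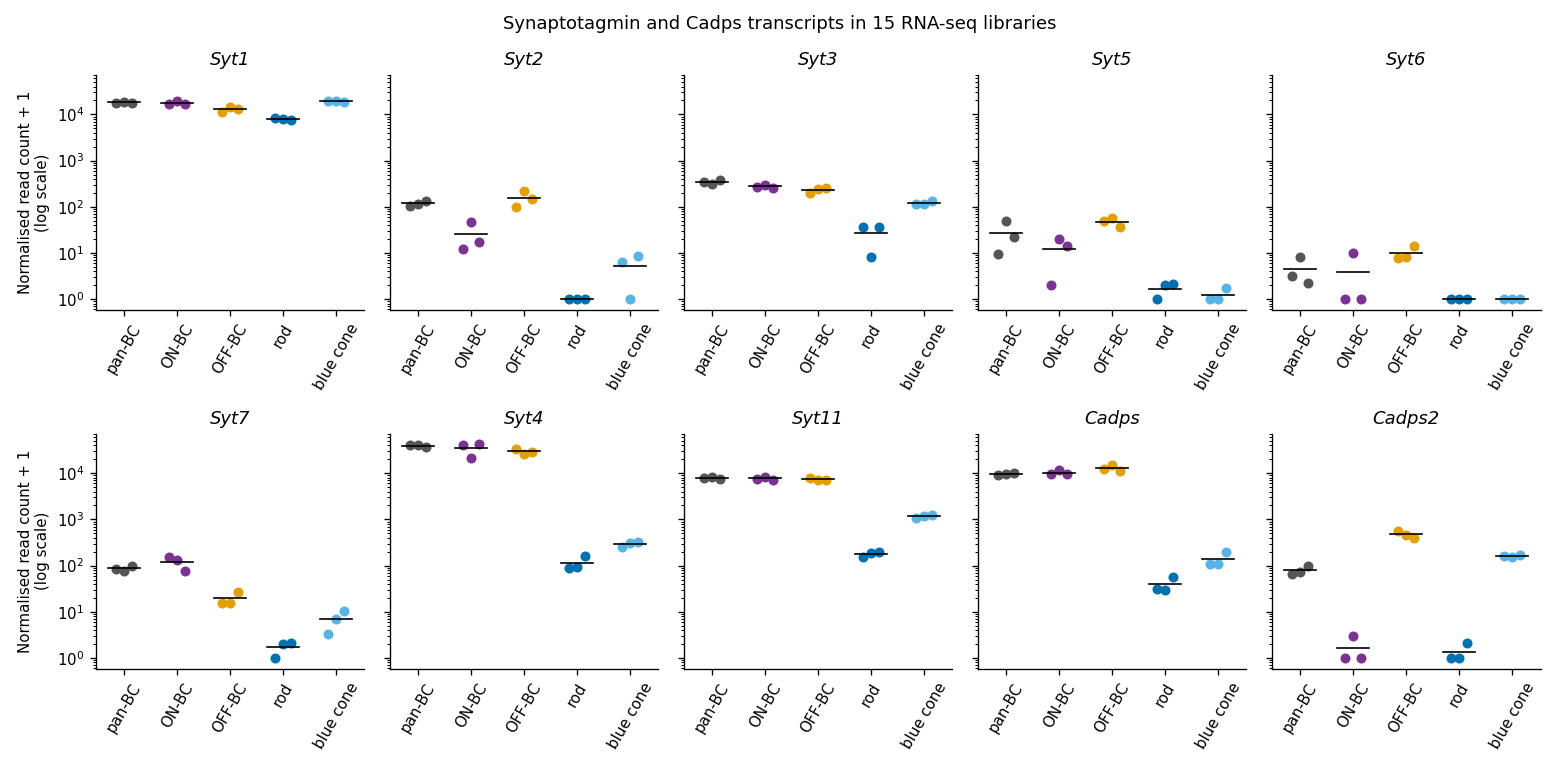
Normalised read count plus 1 of each member on a log scale, by population; each point is one library (n = 3) and each bar is the mean. Cadps2 is near 0 in ON-BC and rods and present in OFF-BC and blue cones, while Cadps, Syt4 and Syt11 are high in all 3 bipolar populations.

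The low photoreceptor values of Cadps and Syt4 were near those of Grm6 in the same libraries, each taken relative to its pan-BC mean. In rods, Cadps was 0.31%, 0.30% and 0.58% of its pan-BC mean and Syt4 was 0.22%, 0.24% and 0.40%, where Grm6 was 0.49%, 0.63% and 1.40%. In blue cones, Cadps was 1.09%, 1.09% and 2.01%, and Grm6 was 0.84%, 1.60% and 2.15%; rod replicate 3 and blue cone replicate 3 were highest for both genes. The ON markers Grm6, Isl1, Trpm1 and Prkca summed to 1171 to 1461 in rods and 563 to 965 in blue cones, with none at 0 throughout, against 82726 to 89854 in pan-BC. Otx2, Cabp5 and Prdm8, listed here as bipolar markers, summed to 7384 to 8151 in rods and 32025 to 37116 in blue cones, against 42118 to 54605 in pan-BC. The paper describes Otx2 as expressed by photoreceptors as well as bipolar cells, so this sum is no measure of bipolar cells. The part of bipolar cells in the Cadps and Syt4 reads of photoreceptors was not tested. Syt11 in blue cones was 13.8% to 16.1% of pan-BC, and Syt3 32.8% to 38.2%, above Grm6 in the same libraries. The OFF markers Grik1, Tacr3, Neto1 and Bhlhe22 summed to 345 to 444 in blue cones, with 1 of the 4 at 0 throughout. Their sum was 7158 to 8910 in pan-BC and 31146 to 52408 in OFF-BC. Blue cone Cadps2 was 197% to 220% of pan-BC, and its mean of 162.5 lay below the 472.1 of OFF-BC. The part of OFF cells in blue cone Cadps2 was not tested.

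Compared per length, as reads per kilobase of exon scaled to the counted reads of each library (RPKM), Syt4 was the leading synaptotagmin of bipolar cells and Syt1 that of photoreceptors. In pan-BC, Syt4 had 649 ± 35.7 RPKM, Syt1 226 ± 5.14 and Syt11 110 ± 3.28 (SD, n = 3). Syt4 made up 65.1% ± 1.44 of the summed RPKM of the 8 synaptotagmins in pan-BC. The share was 61.4% ± 11.01 for ON-BC and 63.8% ± 3.85 for OFF-BC, but 1.80% ± 0.66 in rods and 1.83% ± 0.27 in blue cones. Syt1 made up 95.2% ± 1.13 in rods and 90.6% ± 0.95 in blue cones. The summed RPKM was 996 ± 36.0 in pan-BC, 216 ± 10.6 in blue cones and 82.4 ± 9.51 in rods. Of the RPKM of Cadps and Cadps2 together, Cadps2 contributed 53.6% ± 7.60 in blue cones and 3.27% ± 0.63 in OFF-BC.

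**Figure D2:**
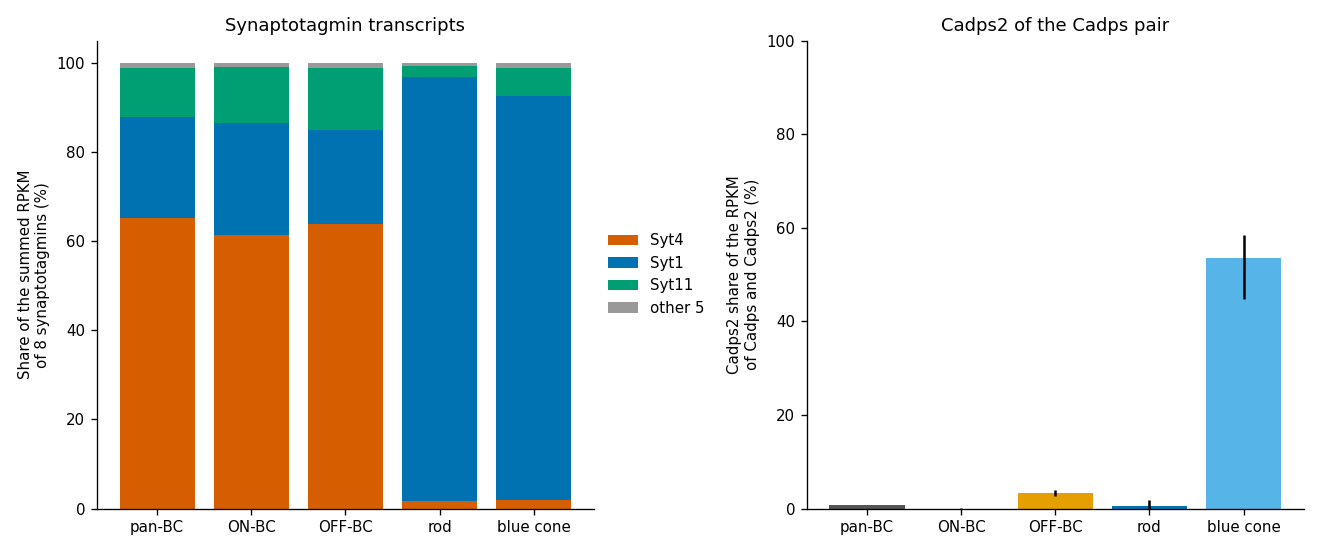
Left, mean share in percent of each synaptotagmin in the summed RPKM of all 8, by population; right, mean share of Cadps2 in the RPKM of Cadps and Cadps2 in percent, with lines from the lowest to the highest of 3 libraries. Syt4 leads in bipolar populations and Syt1 in rods and blue cones, and Cadps2 is about as abundant as Cadps in blue cones only.

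Among genes with a mean normalised count of at least 50, those most like each member over the 15 libraries are given for the members with the widest range of population means. Cadps2, with a range of 8.52 on the log2 scale, was followed by A930009A15Rik (Pearson r = 0.991), the guidance receptor gene Nrp1 (0.987) and the transcription factor gene Sall3 (0.973). Syt4 was followed by Gabrr1, a GABA receptor subunit of bipolar cells (0.998), Ldb2 (0.997) and Ncald (0.997). Cadps was followed by Pde4a (0.997), Gucy1a3 (0.997) and Gabrr1 (0.997). These values describe libraries that share populations, so their points are not independent.

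The chromatin comparisons that follow use ATAC-seq values, whereas the members were selected on RNA levels in the same populations. The paper reports that accessibility and expression are correlated, modestly at enhancers and more strongly at promoters. Accessibility at the members is thus not independent of how they were chosen. Of the 110715 accessible regions, 99 had their nearest transcription start at a member, and 98 passed the filter. Accessibility is in normalised reads, and differences were tested by limma with a minimum log2 change of 1 across 108448 regions, called at a Benjamini-Hochberg adjusted p under 0.05. The promoters of Cadps, Cadps2 and Syt4 were open in bipolar cells and closed in rods. At the Cadps promoter (chr14:12823017-12823217) pan-BC had 72.01 and 92.4 normalised reads, ON-BC 71.7 and 89.3, OFF-BC 68.7 and 58.4, and rods 0 and 1.36. Blue cones had 27.2 and 8.67 there, and green cones 23.1 and 18.3. The log2 difference of pan-BC minus rods was 5.75 ± 0.52 (limma SE), with adjusted p = 4.3e-07. Rods lay below blue cones by a log2 difference of -3.43, with adjusted p = 0.0022 by limma.

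The Cadps2 promoter (chr6:23839306-23839506, in the 5′ UTR of the annotation) had 23.9 and 46.9 normalised reads in ON-BC and 59.3 and 32.1 in OFF-BC, so the populations overlapped although Cadps2 reads were nearly absent from ON-BC. The log2 difference of ON-BC minus OFF-BC was -0.37 ± 0.55 by limma, with an adjusted p of 1.0. Rods had 0 and 0.68 and blue cones 15.5 and 30.4, and pan-BC exceeded rods by a log2 difference of 5.47 ± 0.55 (adjusted p = 1.8e-06). At the Syt4 promoter, pan-BC had 125 and 200.7, rods 0 and 2.71, and blue cones 12.9 and 17.3. Pan-BC exceeded rods there by 6.37 ± 0.52 on the log2 scale by limma (adjusted p = 1.2e-07) and blue cones by 3.32 ± 0.52 (adjusted p = 9.6e-04).

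At the promoters of Syt11 and Syt1 rods had the highest accessibility, although their RNA was lowest in rods. Promoter regions in general leaned the same way. Over all 16495 tested, the median log2 difference was -0.37 for pan-BC minus rods and 0.35 for rods minus blue cones. At Syt11 (chr3:88772499-88772699) rods had 268 and 279 normalised reads, pan-BC 129 and 98.6, ON-BC 118 and 126, and OFF-BC 78.1 and 122. Every bipolar library was below both rod libraries, with a log2 difference of pan-BC minus rods of -1.27 ± 0.23 that did not pass the test of a change beyond 1 by limma (adjusted p = 0.21). Inside the gene, an intronic region of Syt11 (chr3:88771707-88771907) had more reads in pan-BC than in rods by 3.74 ± 0.74 on the log2 scale (adjusted p = 0.0023). For Syt1, the region 990 bases upstream of the start (chr10:109011865-109012065) had 846 and 884 in rods and 224 and 320 in pan-BC, a log2 difference of -1.69 ± 0.18 (adjusted p = 0.0017, limma). The region at the start itself had 894 and 988 in rods and 384 and 506 in pan-BC, and did not pass the test. Syt7 had a pair of promoter regions that ran in opposite directions without passing. The region 346 bases upstream had 123 and 121 in rods and 40.01 and 37.1 in pan-BC (log2 difference -1.64 ± 0.33, adjusted p = 0.063, limma), and the region 6 bases upstream had 50.6 and 46.1 in rods and 92.8 and 67.8 in pan-BC (log2 difference 0.71 ± 0.30).

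**Figure D3:**
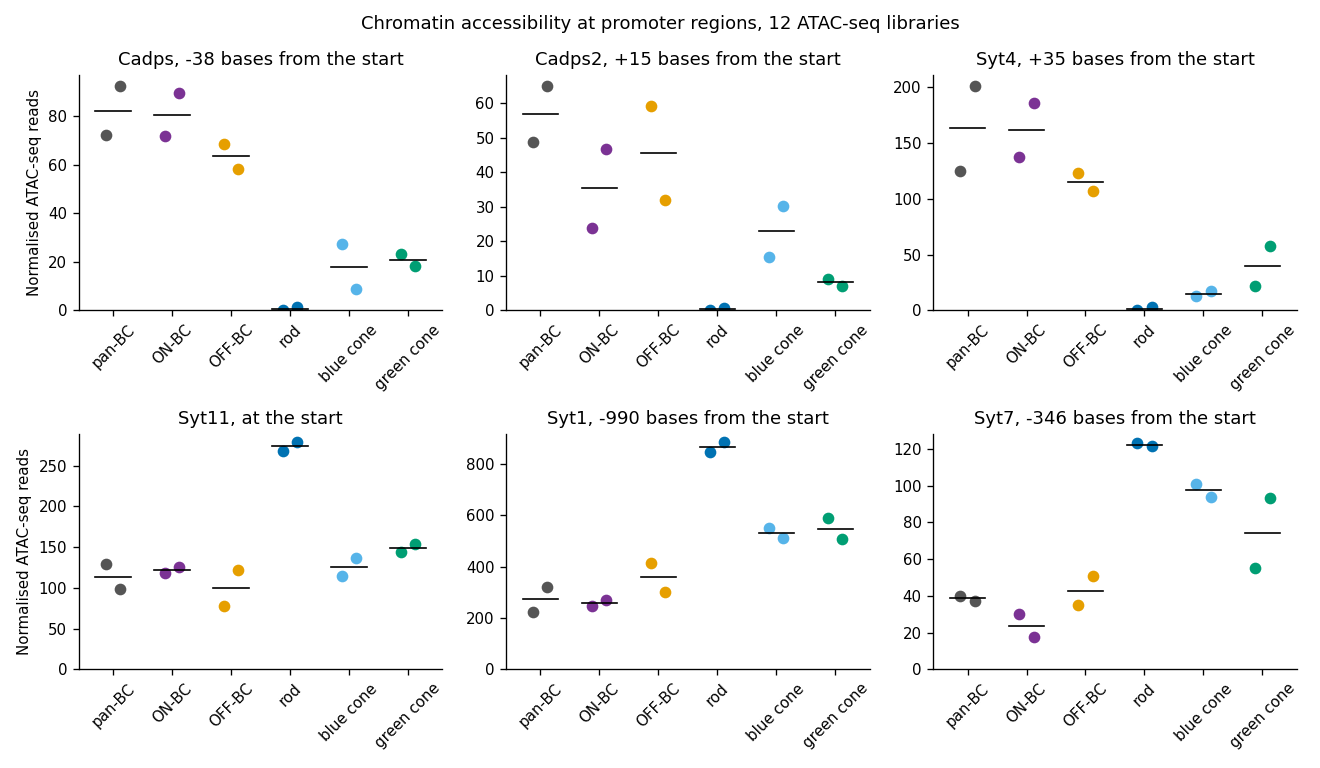
Normalised ATAC-seq reads at 6 promoter regions by population; each point is one library (n = 2) and each bar is the mean. Cadps, Cadps2 and Syt4 are near 0 in rods, while Syt11 at its start, Syt1 at 990 bases upstream and Syt7 at 346 bases upstream are highest in rods.

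Over all member regions, 51 were higher and 7 lower in pan-BC than in rods, 59.2% of those tested, where of all regions 40.3% were higher and 11.2% lower, 51.6% together. Against blue cones 38 were higher and 2 lower in pan-BC (40.8%), where of all regions 28.8% were higher and 7.13% lower (35.9% together). Of the 12 promoter regions of members, 3 were higher and 1 lower than in rods, against 17.2% and 13.8% of all promoter regions, and 3 were higher and 0 lower than in blue cones, against 11.5% and 3.76%. The median log2 difference of member regions was 2.90 for pan-BC minus rods, and that of all regions was 1.16. By nearest start, pan-BC exceeded rods at 18 of 19 Cadps regions and blue cones at 15, Cadps2 had 8 and 3 of 9, and Syt4 had 4 and 3 of 4. Of 27 Syt1 regions, 10 were higher and 5 lower than in rods, and 8 were higher than in blue cones. Of 17 tested Syt2 regions, 4 were higher and 2 lower than in rods, and 5 higher and 1 lower than in blue cones. Syt6 and Syt7 had 2 regions each above rods, and Syt3, Syt5 and Syt11 had 1 each, of 7, 5, 5, 2 and 3 tested. Against rods, the share called higher was thus largest at Cadps, Cadps2 and Syt4. Regions inside a gene but nearest to another start were not counted: 15 in Cadps, 22 in Cadps2, 25 in Syt1 and 3 in Syt7. Rods had 0 member regions higher than blue cones and 11 lower (11.2%), where of all regions 1.46% were higher and 8.56% lower (10% together). The count was 5 without rod replicate 1, 6 without blue cone replicate 1, 6 with 5 added before the logarithm and 17 in edgeR. Of the promoter regions 0 were higher and 3 lower, against 1.03% and 5.55% of all promoter regions. Of these 11, 3 were at Cadps2, 3 at Cadps, 2 at Syt7, 2 at Syt1 and 1 at Syt4. One Syt7 region upstream of the gene (chr19:10356872-10357072) was highest in blue cones, with 132 and 118 normalised reads, against 4.67 and 4.07 in rods. It was lower in pan-BC than in blue cones by a log2 difference of -3.72 ± 0.44 (adjusted p = 7.2e-05, limma).

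Between ON-BC and OFF-BC, 9 member regions were more accessible in ON-BC and 3 in OFF-BC (12.2% of those tested), where of all regions 4.58% favoured ON-BC and 2.8% OFF-BC (7.39% together). Of the 12 promoter regions of members 0 were called in limma, against 0.37% of all promoter regions that favoured ON-BC and 0.903% that favoured OFF-BC. Without OFF-BC replicate 1 the count was 4 and without ON-BC replicate 2 it was 7. Of the regions nearest the Cadps start, 3 intronic ones were higher in ON-BC. An upstream region was higher in OFF-BC, a call it lost in 7 of 10 alternatives. The strongest (chr14:12759139-12759339, shown above) had 73.2 and 161 normalised reads in ON-BC against 0 and 3.89 in OFF-BC, with 0 for every rod and blue cone library, a log2 difference of 5.63 ± 0.78 (adjusted p = 8.4e-04). A second (chr14:12777247-12777447) had 88.1 and 96.6 against 2.69 and 9.73, a log2 difference of 3.89 ± 0.71. A region inside the Cadps span but nearest to the Fezf2 start (chr14:12571743-12571943), not counted above, was also higher in ON-BC. It had 74.7 and 68.8 normalised reads in ON-BC against 0 and 3.89 in OFF-BC (log2 difference 5.04 ± 0.99, adjusted p = 0.0097, limma). In RNA, the Cadps libraries of ON-BC and OFF-BC overlapped, although OFF-BC was higher in each of the 3 pairs of libraries from mice of the same age.

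Of the 9 regions nearest the Cadps2 start, the 2 called were higher in ON-BC, although Cadps2 RNA was in OFF-BC. The intronic region shown above had 56.7 and 32.2 normalised reads in ON-BC and 0 and 4.87 in OFF-BC (log2 difference 4.18 ± 0.93, adjusted p = 0.027, limma). It held its call in 7 of 11 alternatives. A region 29408 bases upstream (chr6:23868729-23868929) had 56.7 and 38.1 against 8.08 and 5.84 (log2 difference 2.59 ± 0.52, adjusted p = 0.048), but 45.3 and 65.0 in blue cones. It held its call in 3 of 11 alternatives. A further 22 regions inside the gene lay nearest to another start. Among them, chr6:23377040-23377240 was also called higher in ON-BC. It had 35.8 and 17.6 normalised reads in ON-BC against 2.69 and 0 in OFF-BC (log2 difference 3.77 ± 0.83, adjusted p = 0.031, limma). No Cadps2 region was called higher in OFF-BC.

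Syt2 had one region higher in each population. The upstream region shown above had 35.8 and 57.1 normalised reads in ON-BC and 0 and 1.95 in OFF-BC (log2 difference 4.75 ± 0.83, adjusted p = 0.0051, limma), and 16.0 and 27.4 in pan-BC. An intronic region (chr1:134737983-134738183) had 16.2 and 18.5 in OFF-BC and 2.99 and 0 in ON-BC (log2 difference -3.20 ± 0.69, adjusted p = 0.039), a call it lost in 5 of 11 alternatives. At Syt7, whose RNA was higher in ON-BC, the upstream region most open in blue cones was higher in OFF-BC, with 32.3 and 38.9 against 2.99 and 2.93 (log2 difference -3.20 ± 0.44, adjusted p = 0.0027). By nearest start, single regions of Syt1, Syt4 and Syt6 were higher in ON-BC by log2 differences of 3.502 ± 0.42, 4.13 ± 0.74 and 4.01 ± 0.80. Inside Syt1, a region nearest to another start (chr10:108505056-108505256) was also higher in ON-BC, by 2.83 ± 0.44 (adjusted p = 0.0085, limma).

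**Figure D4:**
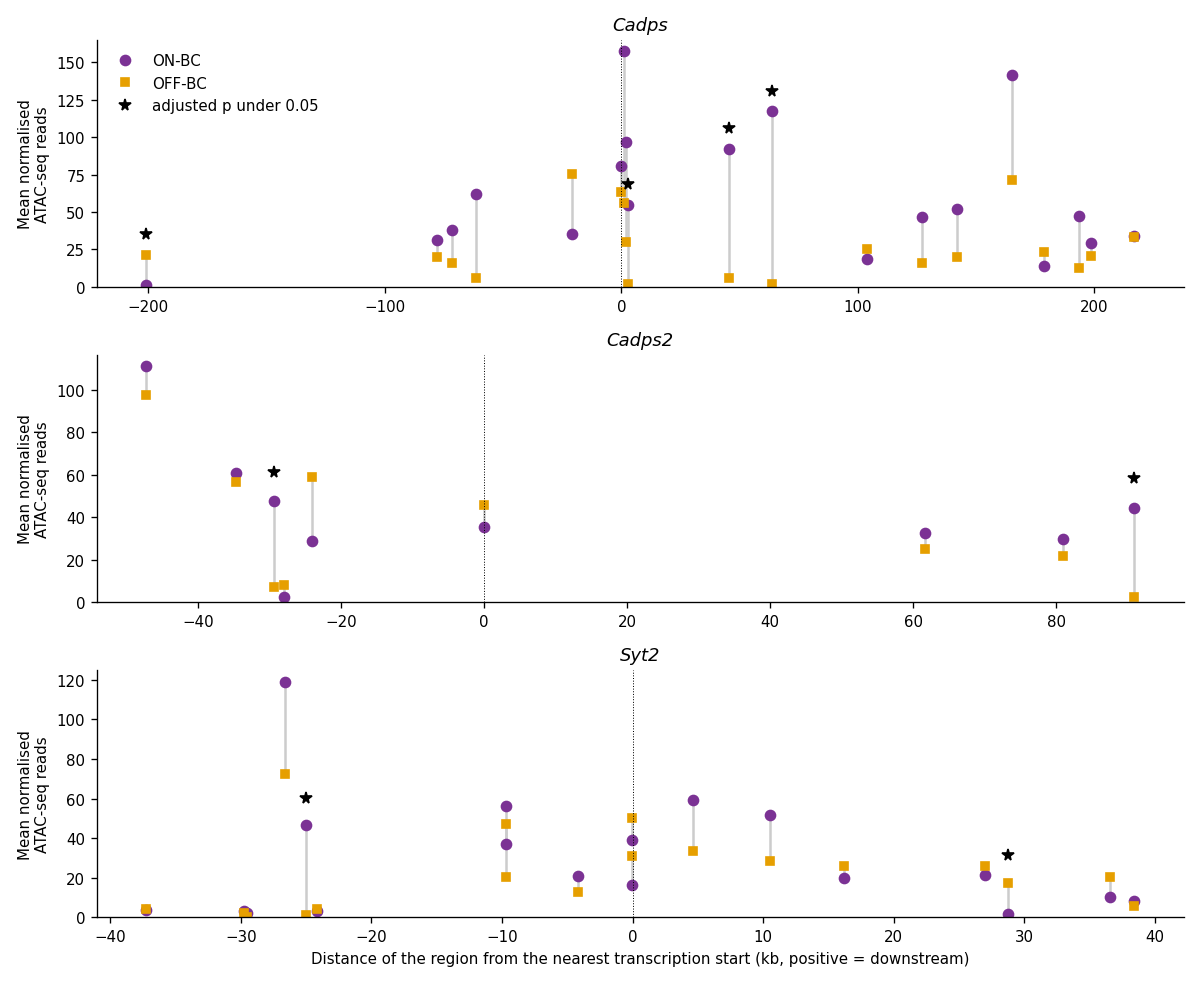
Mean normalised ATAC-seq reads (n = 2 libraries) of each region in ON-BC (circles) and OFF-BC (squares) by distance from the nearest transcription start in kb, for Cadps, Cadps2 and Syt2; stars mark adjusted p under 0.05. Called regions of Cadps within the gene are higher in ON-BC, and the Cadps2 start shows similar values in both.

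The other genes of the pathway were 46 exocytosis genes listed by role, of which 38 passed the filter, and their RNA was tested. This list was chosen with earlier results of these data known, and the tests use the same RNA-seq libraries. The shares called are thus not an independent test of the pathway. Between ON-BC and OFF-BC, 3 rose and 1 fell in ON-BC relative to OFF-BC (10.5% of those tested), where of 14024 genes 2.95% were higher and 3.6% lower (6.55% together). Rph3a, a rab3 effector with C2 domains, had 804 ± 141 normalised counts in ON-BC against 47.7 ± 20.4 in OFF-BC (SD, n = 3; log2 difference 4.12 ± 0.32, adjusted p = 2.0e-06, limma). The dense-core vesicle genes Chgb, a granin, and Pam, a peptide-amidating enzyme, were higher in ON-BC by 2.37 ± 0.19 and 3.06 ± 0.38. Syt12, a further synaptotagmin, was higher in OFF-BC, with 203 ± 42.2 against 6.07 ± 3.07 (log2 difference -4.93 ± 0.47), and also 34.5 ± 3.43 in blue cones and 1.40 ± 1.66 in rods.

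Against rods, 18 of the 38 were higher and 4 lower in pan-BC (57.9%), where of all genes 27.8% were higher and 15.8% lower (43.6% together). Against blue cones 13 were higher and 4 lower (44.7%), where of all genes 22.7% were higher and 13.7% lower (36.3% together). The median log2 difference of the list was 1.80 against rods and 1.01 against blue cones, and that of all genes 0.21 and 0.16. Of 11 tested dense-core vesicle genes, 9 were above rods in pan-BC, and 3 were above and 1 below blue cones. Scg2, a granin, had 51836 ± 4581 normalised counts in pan-BC, 6067 ± 711 in blue cones and 296 ± 108 in rods, with log2 differences of 7.50 ± 0.20 and 3.10 ± 0.20 (adjusted p = 3.8e-14 and 9.1e-08, limma). Of the priming factors of the MUNC13 family, Unc13c exceeded its rod level by 7.33 ± 0.54 on the log2 scale in pan-BC, and Baiap3 by 4.46 ± 0.67. Of the other synaptotagmins, Syt13 was higher than in rods by 7.48 ± 0.50, Syt12 by 4.19 ± 0.47 and Syt9 by 4.16 ± 0.10. Doc2b, a C2-domain sensor of spontaneous release, was lower in pan-BC, with 42.8 ± 15.9 against 816 ± 42.3 in rods and 1804 ± 95.7 in blue cones. The vesicle glycoproteins of the SV2 family went both ways against rods: Sv2a was higher in pan-BC by 3.54 ± 0.11, Sv2c lower with a log2 difference of -4.54 ± 0.63 and Sv2b lower with one of -1.36 ± 0.12. Against blue cones, Sv2b was lower with a log2 difference of -2.36 ± 0.12.

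Between rods and blue cones, 3 of the 38 were higher in rods and 10 lower (34.2%), where of all genes 4.63% were higher and 11.3% lower (15.9% together). Of the dense-core vesicle genes, 1 was higher in rods, the peptide-processing enzyme gene Pcsk2 by 1.87 ± 0.23 on the log2 scale, and 7 were lower, led by Scg3 with 239 ± 69.1 normalised counts in rods against 11494 ± 977 in blue cones (log2 difference -5.62 ± 0.16, adjusted p = 2.3e-13, limma). Sv2c was higher in rods, where it had 95.4 ± 42.8, and had no read in any blue cone library.

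**Figure D5:**
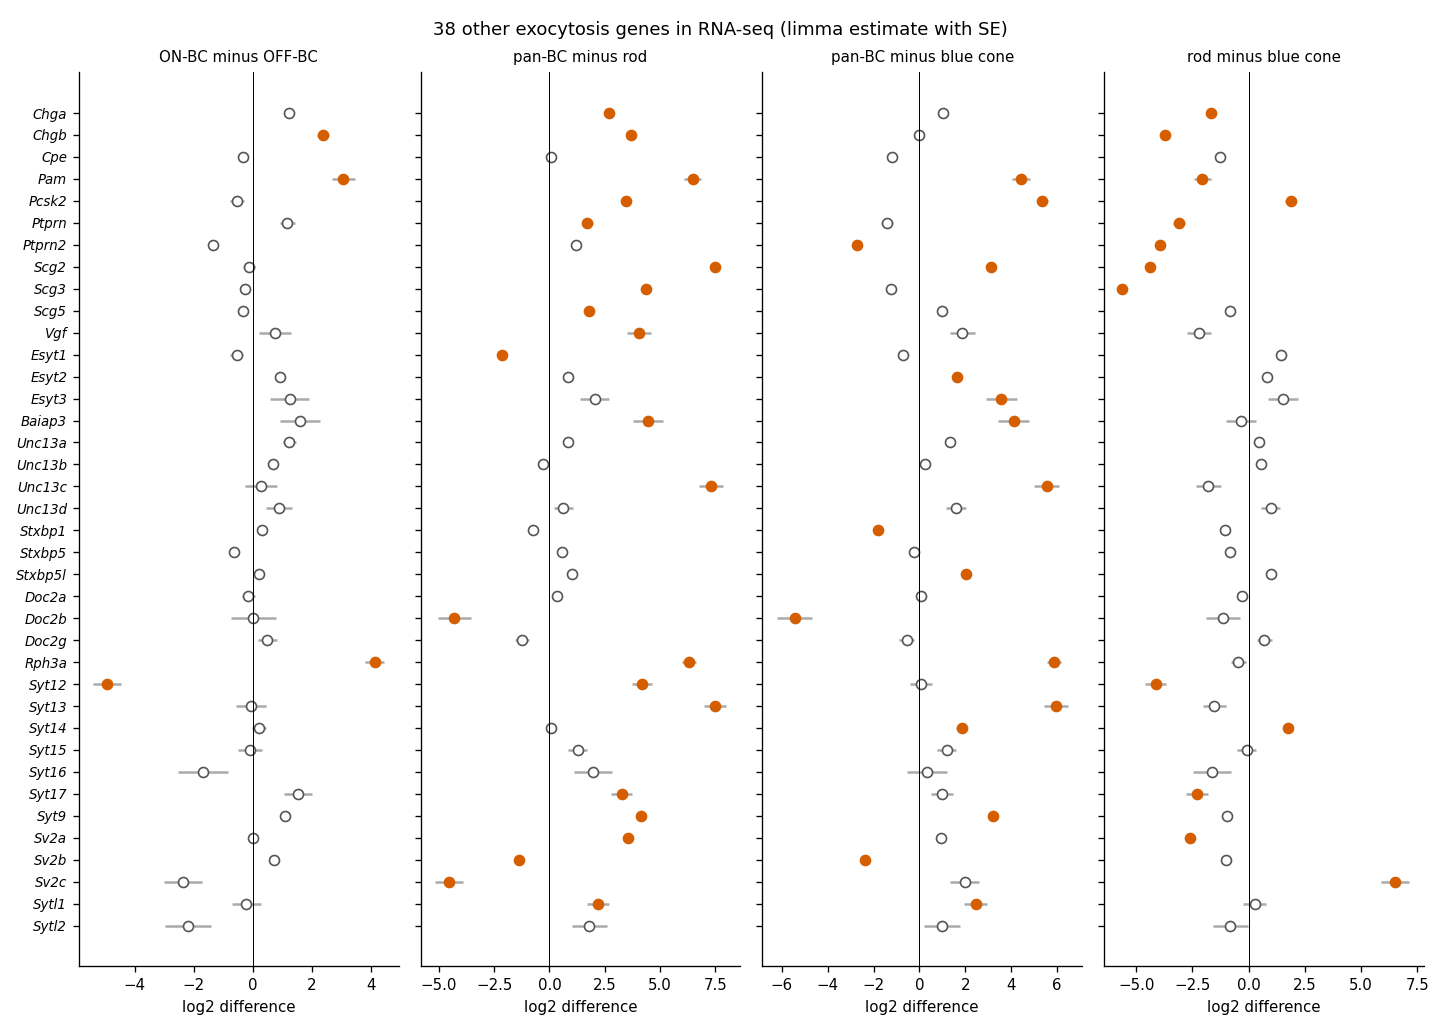
Log2 difference with limma SE of 38 other exocytosis genes in the 4 comparisons; filled points have an adjusted p under 0.05. In pan-BC minus rod 18 filled points lie above 0 and 4 below it.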

How the data were processed

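RNA-seq (15 libraries) and ATAC-seq (12 libraries) of sorted mouse retinal cells were analysed. The authors aligned RNA-seq reads with STAR and counted them on genes with HTSeq; ATAC-seq reads were aligned with Bowtie2, filtered with SAMtools and Picard to short fragments, and counted in regions from the union of MACS2 peaks, all on mm10; the submitters' processing notes give STAR 2.7.0d, Picard 2.19.0 and MACS2 2.1.1. In both deposited tables the values are a normalised signal, made by the authors from read counts with a single size factor for each library. All values above 0 (100%) came out as whole reads within 0.01, and the step recovered the counted reads. The deposited peak lists were not used here.

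The tests used limma 3.58.1 (treat, trended prior, minimum log2 change 1) on log2 of the normalised value plus 1, which understates the change of low genes, after edgeR 4.0.16 filterByExpr (14024 of 24062 genes, 108448 of 110715 regions); adjusted p-values are Benjamini-Hochberg over all of them. DESeq2 1.42.0, the study's tool, and edgeR glmTreat were alternatives on the recovered reads. On simulated counts for ON-BC and OFF-BC, 93 of 100 genes changed 4-fold (13701 genes) and 13 of 100 regions changed 4-fold (106505 regions) were called, and 100 of 100 and 96 of 100 at 16-fold, with 0 unchanged called. The changed features were drawn from above the lower quartile of mean level, so these rates do not cover the lowest genes and regions. Regions were assigned to the nearest of 45756 RefSeq transcript starts, and promoters ran from 1000 bases upstream to 100 downstream. Intervals are exact, at 95%, and cover counting error only, as does the floor of 3 counts. The members and the lists of other genes, and the tests, were chosen with earlier results of these data known. Named were all 10 members, of the other genes up to 3 called per role and comparison with the largest change, up to 3 called regions per member and comparison with the promoter regions, and the 3 genes most like a member; Syt11 and Syt7 regions beyond these and the printed promoters were chosen after their values were seen. Protein sequences were not used here. Some marker genes are not reported here.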

Additional observations from a re-analysis of the deposited data

How the results depend on the processing

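Every count of other exocytosis genes stayed within 1.5 times its main value under every alternative (log2 of the value plus 5, TMM, library totals, no filter, edgeR, DESeq2, the replicate block); leaving out 1 library gave 4 to 4, 20 to 21, 16 to 20 and 10 to 12 genes for ON-BC minus OFF-BC, pan-BC minus rod, pan-BC minus blue cone and rod minus blue cone. Counts of member regions were less stable. DESeq2 called 7 between ON-BC and OFF-BC in place of 12. Adding 5 before the logarithm called 6 between rods and blue cones in place of 11, and edgeR 17. Adding the regions inside the gene span that lie nearest to another start, an alternative chosen after seeing the data, gave 90 regions for pan-BC minus rod, 64 for pan-BC minus blue cone and 17 for rod minus blue cone, since more regions were tested. Without 1 library the region counts were 4 to 9, 48 to 57, 29 to 34 and 5 to 10 in the order above; the lowest for rods against blue cones came without rod replicate 1, and without blue cone replicate 1 it was 6. In the replicate block the region counts were 10, 58, 41 and 10. The correlations of same-numbered ON-BC and OFF-BC RNA-seq libraries were -0.076, 0.222 and -0.065, and ON-BC replicate 1 correlated best with OFF-BC replicate 3 (0.141). With 3 libraries per population such values cannot settle whether libraries are paired. Same-numbered ON-BC and OFF-BC mice share a postnatal day, but no label states a pairing, so the main fit used none. The replicate block moved no count by over 1.5 times. Under it the upstream Cadps region and the upstream Cadps2 region lost their calls between ON-BC and OFF-BC, and a Syt1 region, Pam and Syt17 between rods and blue cones. Of the 12 regions called between ON-BC and OFF-BC, 4 kept their call in all alternatives that gave a value. Member differences near 0 changed sign: that of Syt1 for pan-BC minus blue cone was 0.20 with library totals, and for ON-BC minus OFF-BC that of Syt4 was -0.02 without ON-BC replicate 3 and that of Syt11 -0.02 without ON-BC replicate 2. Library totals moved the median of all genes by 0.34 for pan-BC minus rod and by 0.28 for pan-BC minus blue cone, and raised the share of called genes that were higher in pan-BC than in rods from 63.8% to 74%. For regions higher in ON-BC than in OFF-BC, the share of calls was 62.1%, 51.9% with TMM and 47.9% with library totals. With 2 libraries per ATAC-seq population, changes of 4-fold are mostly below what these counts can call; the cause of the other changes was not tested.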
